A study of Mus musculus with 24 samples.

Results

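The 10 genes examined encode proteins of pericellular matrix breakdown, namely the matrix metalloproteinases Mmp9, Mmp12, Mmp13, Mmp14 and Mmp19, the tissue inhibitors Timp1 and Timp2, and the plasminogen activator genes Plau, Plaur and Serpinb2. They were found by their symbols among 21597 gene symbols on Agilent 2-colour mouse whole genome arrays, which gave 16 probes, and all 10 passed the filter on detection and were among the 17347 genes tested. RNA came from C57BL/6 mice and from 3 cell types, which were macrophages elicited into the peritoneum with thioglycollate (EPM), macrophages grown from bone marrow (BMDM) and resting B cells of the spleen. Cells were treated with Kdo2 lipid A (KLA), the part of bacterial lipopolysaccharide that activates Toll-like receptor 4, for 1 h or 12 h. Controls at 12 h received DMSO in all 3 cell types. The early control was DMSO for 1 h in BMDM and an untreated sample in EPM and B cells, for which the labels give no time, so that the 1 h change in EPM and B cells compares KLA with untreated cells rather than with vehicle. The labels give no age, sex or dose. EPM and BMDM were adherent cells left after washing, BMDM were grown in L-cell conditioned medium as a source of macrophage colony stimulating factor, and B cells were what remained after magnetic removal of CD43-positive and CD11b-positive cells. Each of the 12 conditions was 1 array that carried 2 biological replicates, one in the Cy5 and one in the Cy3 channel (n = 2 per condition), and the 4 arrays of a cell type shared 1 slide. The labels do not say which mice the replicates came from, so the p-values measure only the spread between these channels.

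Matrix metalloproteinases are secreted or membrane-bound zinc proteases that cleave collagens, elastin, proteoglycans and other proteins outside the cell, are made as inactive precursors, and are blocked by the tissue inhibitors of metalloproteinases (TIMPs). Another route to matrix breakdown starts with urokinase (Plau), which converts plasminogen to plasmin while held at the cell surface by its receptor (Plaur), and plasmin cleaves fibrin and activates several metalloproteinase precursors. Serpinb2 encodes plasminogen activator inhibitor 2, a serpin that blocks urokinase, so the 3 genes stand for the activator, its docking site and an inhibitor. Macrophages use both routes in migration, tissue remodelling and wound repair.

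RefSeq promoter entries (GRCm38.p6) were at hand for 7 of the 10 genes, as 9 entries. The 250 bases before each start were searched on both strands for the AP-1 site TGANTCA, the TATA box TATAAA and the NF-kappaB consensus. TGANTCA was found in 5 of the 9 entries, before 4 of the 7 genes, compared with 6.75% of all 32851 promoter entries of this length. TATAAA was found in 3 of the 9 entries, before 2 genes (12.4% of all entries), and the NF-kappaB consensus in none (3.9%). The 2 Serpinb2 entries hold the same pair of matches. The 4 genes with TGANTCA are shown because they include members that rose with KLA (Mmp13, Serpinb2 and Plaur) and one that fell (Mmp12). A match to these letters is a description of the sequence and does not show that a factor binds there. Each line gives the 250 bases before the start, 5′ to 3′ on the gene's strand, with both kinds of match in capitals. The stretches are chr9:7272264-7272513 for Mmp13, chr1:107511173-107511422 for Serpinb2, chr7:24462233-24462482 for Plaur and chr9:7347124-7347373 for the Mmp12 entry shown, all on the plus strand.
Mmp13: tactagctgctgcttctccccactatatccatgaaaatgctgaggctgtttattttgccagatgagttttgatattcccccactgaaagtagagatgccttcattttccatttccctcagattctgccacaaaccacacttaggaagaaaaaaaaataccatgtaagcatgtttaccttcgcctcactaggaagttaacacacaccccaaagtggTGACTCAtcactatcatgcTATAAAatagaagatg
Serpinb2: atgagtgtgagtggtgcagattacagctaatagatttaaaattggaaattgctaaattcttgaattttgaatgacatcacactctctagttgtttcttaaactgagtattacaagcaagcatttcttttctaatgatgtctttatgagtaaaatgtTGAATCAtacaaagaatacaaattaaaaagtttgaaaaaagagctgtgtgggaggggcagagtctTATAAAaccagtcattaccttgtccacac
Plaur: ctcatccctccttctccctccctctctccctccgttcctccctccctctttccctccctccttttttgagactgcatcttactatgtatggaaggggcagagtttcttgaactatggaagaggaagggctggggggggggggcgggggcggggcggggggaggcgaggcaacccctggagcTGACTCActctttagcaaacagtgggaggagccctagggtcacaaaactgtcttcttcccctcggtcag
Mmp12: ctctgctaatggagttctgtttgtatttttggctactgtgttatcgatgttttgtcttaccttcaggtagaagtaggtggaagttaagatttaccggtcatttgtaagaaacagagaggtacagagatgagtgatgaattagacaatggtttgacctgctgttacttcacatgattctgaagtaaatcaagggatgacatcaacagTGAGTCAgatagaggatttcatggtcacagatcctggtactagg

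In Mmp13 the TGANTCA match lay 35 to 29 bases before the annotated start and TATAAA 16 to 11 bases before it. In Serpinb2 they lay at 94 to 88 and 29 to 24 bases in the entry shown, and the second Serpinb2 entry covers the same pair of matches from a start farther downstream. Plaur held TGANTCA at 69 to 63 bases and no TATAAA, as did the second entry of Mmp12 at 44 to 38 bases, whereas the first Mmp12 entry held neither. The entries of Mmp14, Timp1 and Timp2 held none of the 3 motifs.

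Levels are normalized log2 intensities of single channels, and 1 unit is a 2-fold difference. Of all probes, 60.0% to 65.0% were well above background in EPM channels, 58.2% to 61.2% in BMDM channels and 57.4% to 61.5% in B cell channels, no spot was saturated, and the lowest signal counted as well above background lay between 5.44 and 6.16. Over the 10 genes and 12 conditions the SD between the 2 channels had a median of 0.06 and reached 0.31. All 9 macrophage markers were well above background in every EPM and BMDM condition, with summed intensities of 473807 to 579469, and 5 or 6 of 9 in B cells (2504 to 6630). All 7 B cell markers were well above background in B cells (274391 to 343798), with 5 to 7 in EPM (60302 to 67909, of which Blnk was the brightest) and 5 or 6 in BMDM (20273 to 29385). Markers of T cells summed to at most 3398, of neutrophils to at most 3719, of eosinophils to at most 1365 and of platelets to at most 374 in any channel.

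The 9 markers of fibroblasts and mesothelium separated the 2 macrophage preparations. All 9 were well above background in each EPM condition, with summed intensities of 58897 to 104163, whereas BMDM had 6 or 7 of 9 and sums of 4631 to 7949, with Pdgfra and Msln not well above background in any BMDM condition, and B cells had only Col1a2 (sums of 701 to 772). In EPM the sums were 58897 and 64362 in untreated cells and 91817 and 104163 in the 12 h control, and with KLA they were 61289 and 62227 at 1 h and 86905 and 89890 at 12 h. In BMDM they were 4631 and 4766 in the 1 h control and 5691 and 6056 with KLA at 1 h, and 6333 and 6498 in the 12 h control and 7920 and 7949 with KLA at 12 h, so that in BMDM they were higher with KLA at both times. Collagen-making cells are a known source of several of the genes described here, among them Timp1, Timp2 and Mmp14, so these sums are given beside some comparisons of these genes, whether or not they move together. Their part in the results was not tested.

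**Figure D1:**
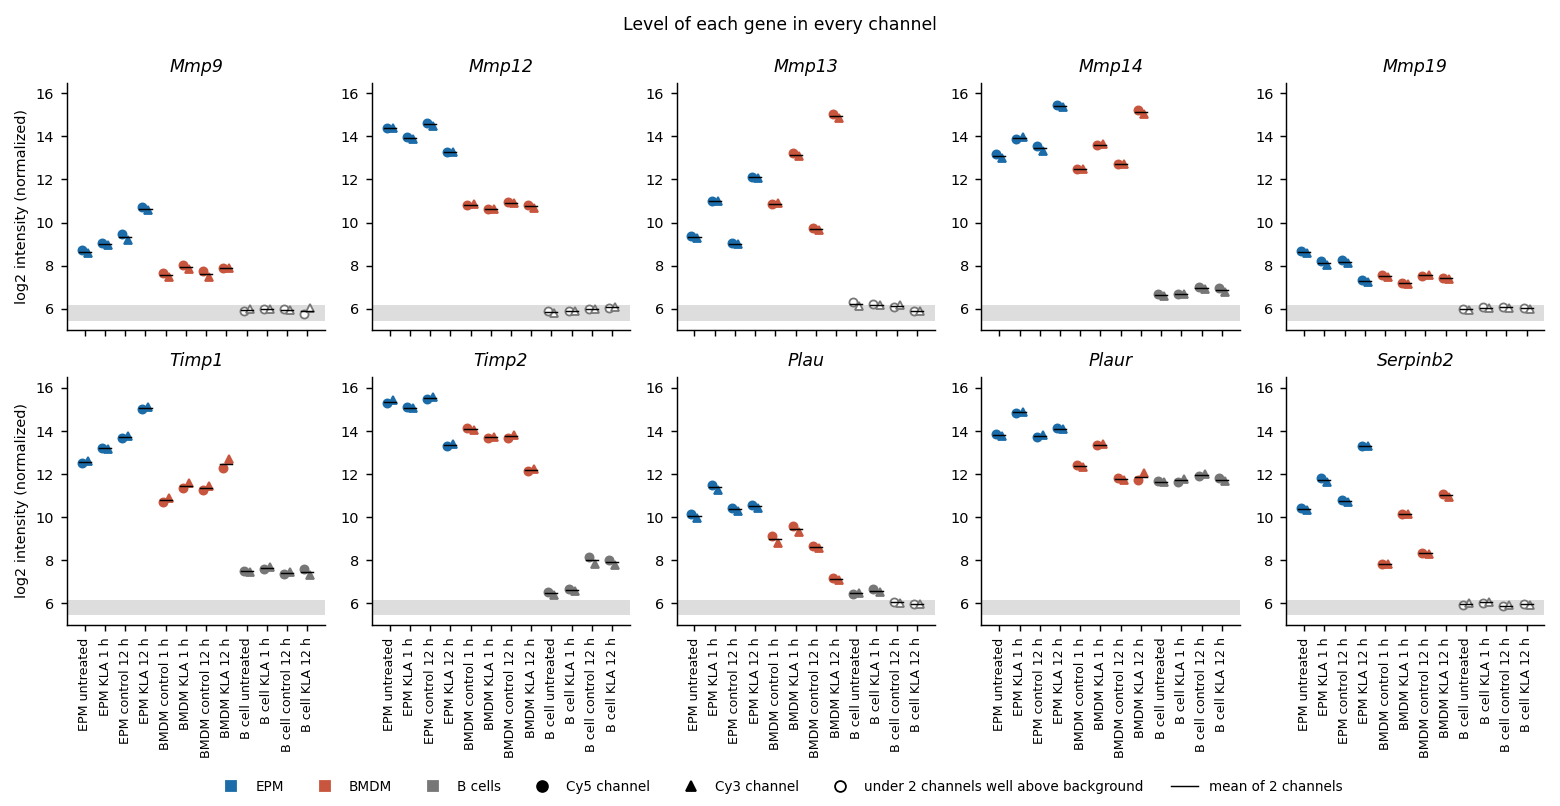
Level of each of the 10 genes in every channel, as normalized log2 intensity (y axis) by condition (x axis). Circles are Cy5 and triangles Cy3 channels, black bars their mean, open symbols conditions in which fewer than 2 channels were well above background, and the grey band the range of the lowest signal counted as such (5.44 to 6.16); Mmp13 spans 9.02 to 14.95 over the macrophage condition means, and Mmp9, Mmp12, Mmp19 and Serpinb2 sit at the band in all B cell conditions.

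Without KLA, 9 of the 10 genes were higher in EPM than in BMDM and Mmp13 was lower, both for the early controls and for the 12 h controls. Over all genes tested, 28.5% were higher and 29.3% lower in EPM for the early controls, and 27.2% higher and 29.8% lower for the 12 h controls (limma, adjusted p under 0.05). The median difference of the 10 genes was 1.21 and 1.76 on the log2 scale, compared with -0.01 and -0.02 over all genes. Since each cell type lay on its own slide, cell type and slide cannot be told apart in these comparisons, and in such bulk RNA fewer cells of a type and less RNA per cell cannot be told apart either. The early controls also differed in kind, untreated in EPM and DMSO in BMDM. The sum of the fibroblast and mesothelial markers was also higher in EPM in every channel, as given above.

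Mmp12, the macrophage elastase, differed most. Its level was 14.40 and 14.41 in the 2 untreated EPM channels and 10.80 and 10.86 in the BMDM 1 h control, an 11.9-fold difference (log2 difference 3.57, SE 0.06, adjusted p = 1.64e-18), and it was 12.5-fold at 12 h. Serpinb2 stood at 10.44 and 10.33 in untreated EPM and at 7.81 and 7.82 in BMDM, a log2 difference of 2.57 (SE 0.07, adjusted p = 4.77e-16). For Timp1, which inhibits most metalloproteinases, untreated EPM gave 12.51 and 12.59 against 10.71 and 10.91 in BMDM (log2 difference 1.74, SE 0.12, adjusted p = 4.22e-10). None of these channels overlapped between the cell types.

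Timp2 (log2 difference 1.28, adjusted p = 5.22e-10), the urokinase receptor Plaur (1.44, adjusted p = 5.13e-11), Plau (1.08, adjusted p = 7.31e-08), the gelatinase Mmp9 (1.09, adjusted p = 1.16e-07) and Mmp19 (1.13, adjusted p = 2.24e-11) were between 2.12-fold and 2.72-fold higher in untreated EPM. Second probes gave 1.41 for Mmp9 and 1.49 for Plaur, but 0.38 for Plau (limma, adjusted p = 2e-05). For the 12 h controls Plau gave 1.76, and 0.72 with its second probe, so the size of its difference depends on the probe. Mmp14, the membrane-type metalloproteinase that activates other metalloproteinases at the cell surface, was 0.60 higher (adjusted p = 7.45e-06), but its second probe gave a difference of -0.05 (adjusted p = 0.659), so that the probes of Mmp14 disagree on the early difference. Mmp13, an interstitial collagenase, went the other way. It stood at 9.38 and 9.27 in untreated EPM and at 10.86 and 10.90 in the BMDM 1 h control (log2 difference -1.56, SE 0.07, adjusted p = 1.48e-12), and the gap was -0.68 at 12 h (adjusted p = 1.91e-07).

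**Figure D2:**
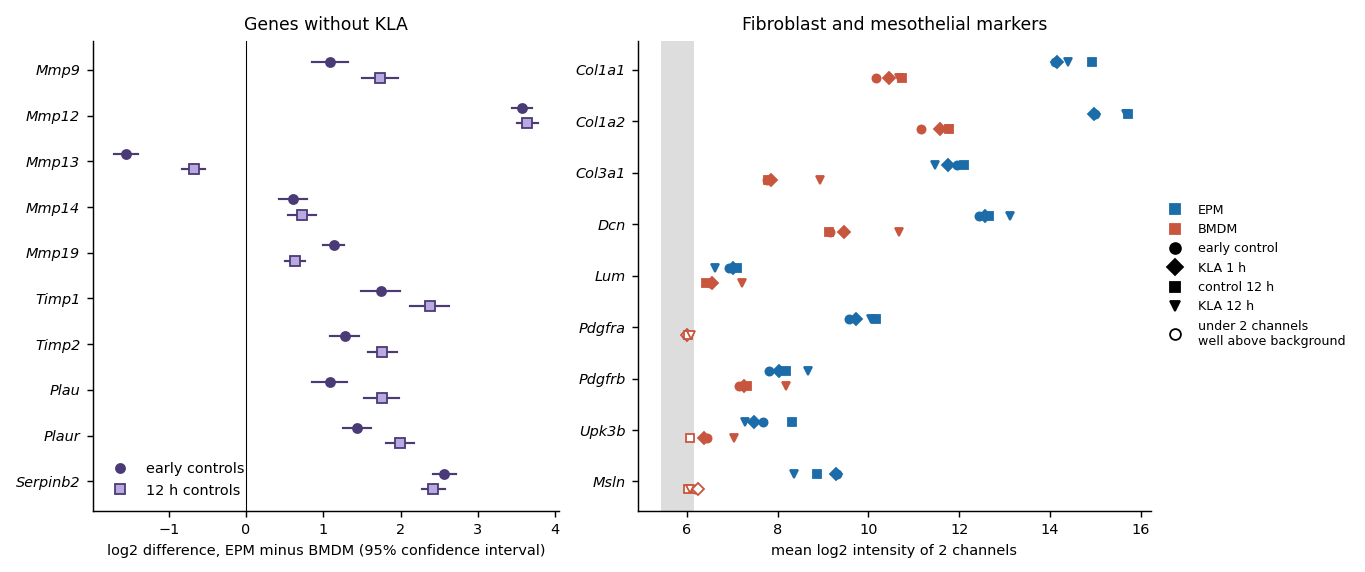
Left, log2 difference between EPM and BMDM without KLA for each gene, with 95% confidence intervals, for the early controls (circles) and the 12 h controls (squares). Right, mean log2 intensity of the 9 fibroblast and mesothelial markers in the 8 macrophage conditions; Mmp13 is the gene left of 0, and each marker is brighter in untreated EPM than in the BMDM 1 h control.

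With KLA, most of the genes changed in both macrophage types, and each gene that passed in both at a given time moved in the same direction in both. At 1 h, 7 of the 10 genes rose and 3 fell in EPM, and likewise in BMDM (limma, adjusted p under 0.05). Of all genes tested, 9.39% rose and 19.7% fell in EPM, and 11% rose and 17.6% fell in BMDM. At 12 h, 6 rose and 3 fell in EPM (19.6% and 34.3% of all genes) and 5 rose and 4 fell in BMDM (28.6% and 36.3%). The 2 KLA channels did not overlap with the 2 control channels for 10 of 10 genes in both EPM comparisons, 10 of 10 in BMDM at 1 h and 9 of 10 at 12 h, and over all genes this share was 63.3%, 74.9%, 59.9% and 81% in the same order. The median change of the 10 genes was 0.73 and 0.82 in EPM at 1 h and 12 h and 0.57 and 0.20 in BMDM, and that of all genes lay between -0.06 and -0.03.

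These calls treat the 2 channels of an array as separate samples, and since each array held 1 condition, array and condition cannot be told apart. With array means as the samples and both control arrays of a cell type as replicates, which leaves 3 residual degrees of freedom, 0 of 10 genes passed at 1 h in either macrophage type. At 12 h 6 passed in EPM (Mmp9, Mmp12, Mmp13, Mmp14, Mmp19 and Serpinb2) and 4 in BMDM (Mmp13, Mmp14, Plau and Serpinb2), and between EPM and BMDM without KLA 7 passed (all but Mmp13, Mmp14 and Timp2). The share of all genes that passed in this fit is not given here, so these counts cannot be set against it.

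**Figure D3:**
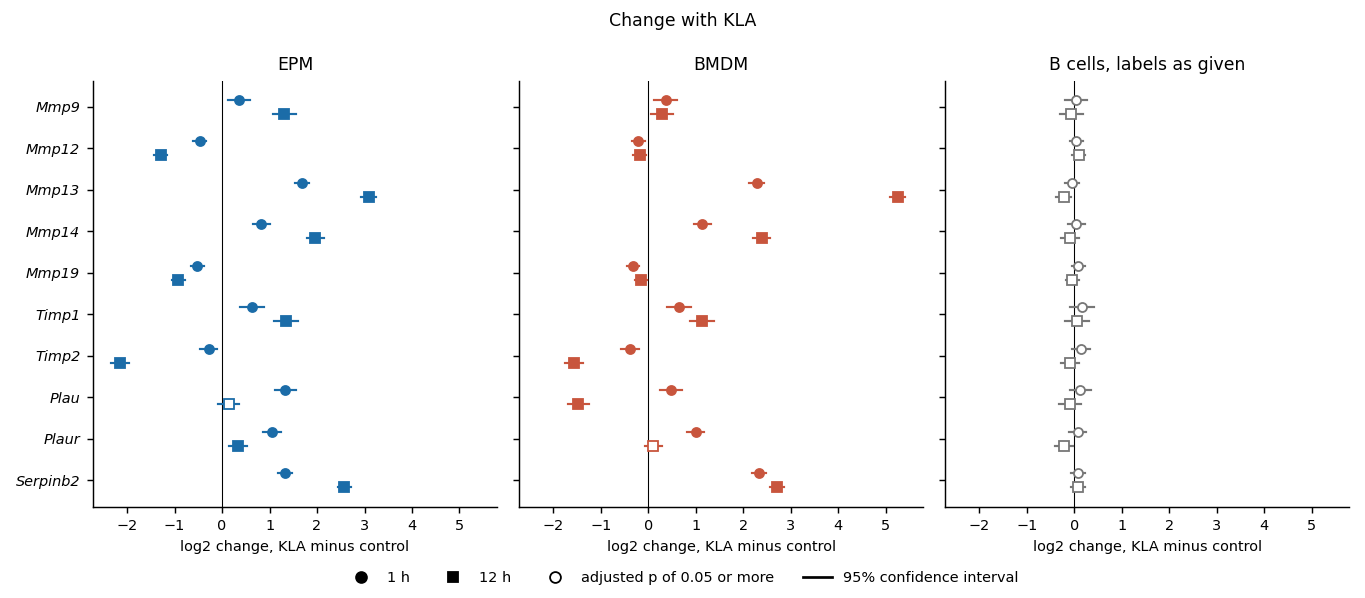
Log2 change with KLA of each gene at 1 h (circles) and 12 h (squares) in EPM, BMDM and B cells, with 95% confidence intervals from the fit over all genes. Filled symbols have an adjusted p under 0.05; Mmp13 reached 5.25 in BMDM at 12 h, Timp2 fell by 2.15 in EPM at 12 h, and every B cell symbol is open.

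Mmp13 showed the largest rise of the 10 genes. In EPM it went from 9.38 and 9.27 in untreated channels to 11.02 and 10.999 after 1 h, a 3.22-fold rise (log2 change 1.69, SE 0.07, adjusted p = 2.43e-12), and from 9.05 and 8.99 in the 12 h control to 12.12 and 12.09, an 8.48-fold rise (3.08, SE 0.07, adjusted p = 5.71e-17). In BMDM the levels were 10.86 and 10.90 in the 1 h control and 13.23 and 13.09 with KLA, a 4.86-fold rise (2.28, SE 0.07, adjusted p = 2.74e-14). After 12 h they were 15.03 and 14.88 against 9.74 and 9.66, a 38.1-fold rise (5.25, SE 0.07, adjusted p = 4.59e-20). Mmp13 was the one metalloproteinase of the 5 that was brighter in BMDM than in EPM in each matched pair of conditions, and no neighbours in the order of its 8 macrophage levels overlapped. The BMDM control itself fell between 1 h and 12 h by 1.18 (adjusted p = 1.64e-09), which enters the 12 h change.

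Mmp14 rose in all 4 comparisons. The change was 0.83 at 1 h in EPM (13.18 and 13.00 to 13.88 and 13.95, SE 0.09, adjusted p = 5.99e-07) and 1.13 in BMDM (12.51 and 12.46 to 13.60 and 13.64, adjusted p = 8.18e-09). By 12 h it stood at 15.48 and 15.36 in EPM against 13.57 and 13.33, a 3.90-fold rise (adjusted p = 5.61e-13), and at 15.21 and 15.04 in BMDM against 12.73 in both control channels, a 5.26-fold rise (adjusted p = 2.26e-14). Its second probe gave 0.89, 2.43, 0.93 and 2.67 in EPM at 1 h and 12 h and BMDM at 1 h and 12 h, and all 4 passed. In BMDM the sum of the fibroblast and mesothelial markers was also higher with KLA at both times, as given above. In EPM, where Mmp14 rose too, the sums were 58897 and 64362 in untreated cells and 61289 and 62227 with KLA at 1 h. After 12 h they were 91817 and 104163 in the EPM control and 86905 and 89890 with KLA. Their part in the Mmp14 rise was not tested.

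Mmp9 rose mainly in EPM at 12 h, where it reached 10.71 and 10.58 from 9.48 and 9.19 in the control (2.48-fold, log2 change 1.31, SE 0.11, adjusted p = 9.86e-09), and its second probe, printed on the array as 10 spots, gave 1.29. The other 3 changes were small. The probe used here was the brighter one over all channels, but not in untreated EPM or in either EPM condition at 12 h. At 1 h it rose by 0.35 in EPM (adjusted p = 0.0230) and by 0.36 in BMDM (adjusted p = 0.0196), but the 10-spot probe gave 0.05 (adjusted p = 0.588) and 0.10 (adjusted p = 0.248), so a rise at 1 h rests on 1 of 2 probes. It was also lost without the Cy3 control or the Cy5 KLA channel, with changes of 0.27 to 0.29 and adjusted p of 0.156 to 0.179. In BMDM at 12 h the change was 0.29 (adjusted p = 0.0274), 0.43 with the second probe (adjusted p = 5.1e-06) and 0.15 without the Cy3 control channel (adjusted p = 0.330). It turned to -0.01 without normalization between arrays, under which the median of all genes in that comparison was -0.14 in place of -0.03.

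Mmp12 and Mmp19 fell. In EPM Mmp12 went from 14.40 and 14.41 to 13.996 and 13.88 at 1 h (log2 change -0.47, adjusted p = 1.78e-05, but -0.16 in the authors' table, adjusted p = 0.465) and from 14.64 and 14.50 to 13.28 and 13.27 at 12 h, which is 2.45-fold lower (-1.29, SE 0.06, adjusted p = 4.07e-12). Mmp19, a metalloproteinase with broad activity on basement membrane, went from 8.70 and 8.58 to 8.20 and 8.03 at 1 h (-0.52, adjusted p = 5.01e-06) and from 8.24 and 8.13 to 7.31 and 7.22 at 12 h (-0.92, SE 0.06, adjusted p = 5.4e-10). In BMDM both changes were at most 0.32 in size, and the Mmp12 calls (-0.21 at 1 h, adjusted p = 0.0181, and -0.18 at 12 h, adjusted p = 0.0218) and the 12 h call of Mmp19 (-0.15, adjusted p = 0.0452) were each lost without any one of several single channels, with adjusted p of up to 0.310. In the authors' table the Mmp12 change at 12 h in BMDM was 0.00 (adjusted p = 0.989). The EPM falls at 12 h brought Mmp19 into the range of the BMDM channels (7.16 to 7.57), whereas Mmp12 in KLA-treated EPM remained above every BMDM channel.

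The 2 inhibitors moved in opposite directions. Timp1 rose in EPM from 12.51 and 12.59 to 13.20 and 13.19 at 1 h (log2 change 0.64, SE 0.12, adjusted p = 0.000467) and from 13.67 and 13.78 to 15.01 and 15.14 at 12 h (1.35, adjusted p = 1.81e-08), and in BMDM by 0.65 (adjusted p = 0.000414) and 1.14 (11.26 and 11.43 to 12.26 and 12.70, adjusted p = 1.2e-07). Timp2, which inhibits metalloproteinases and also takes part in the activation of the Mmp2 precursor by Mmp14, fell at 12 h from 15.48 and 15.56 to 13.33 and 13.42 in EPM, 4.43-fold lower (-2.15, SE 0.09, adjusted p = 2.77e-13), and from 13.69 and 13.82 to 12.16 and 12.22 in BMDM, 2.95-fold lower (-1.56, SE 0.09, adjusted p = 1.99e-11). At 1 h Timp2 fell by 0.39 in BMDM (adjusted p = 0.00305) and by 0.29 in EPM (adjusted p = 0.0215). In the authors' table neither passed (-0.23, adjusted p = 0.249, and -0.01, adjusted p = 0.964), and with the processed signal neither did (adjusted p = 0.125 and 0.249). The EPM call at 1 h was also lost with each change of all genes centred on its median (-0.24, adjusted p = 0.0553), without normalization between arrays (-0.07), and without the Cy3 untreated or either KLA channel (adjusted p of 0.0783 to 0.147).

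Timp1 also rose without KLA. Between the early and the 12 h control it changed by 1.17 in EPM (adjusted p = 1.19e-06), which is 2.26-fold and close in size to its change with KLA at 12 h, and by 0.54 in BMDM (adjusted p = 0.00291). Both BMDM controls received DMSO, but the early EPM control was untreated, so time and vehicle cannot be told apart in EPM. The summed fibroblast and mesothelial markers moved the same way between these EPM controls, as given above, and between the EPM 12 h control and 12 h of KLA they went from 91817 and 104163 to 86905 and 89890. In BMDM, where Timp1 rose with KLA at 1 h and 12 h, these sums were higher with KLA at both times, from 4631 and 4766 to 5691 and 6056 and from 6333 and 6498 to 7920 and 7949, and their part in the Timp1 rise was not tested. Timp2 fell in BMDM at 12 h, where these sums were higher with KLA, and their part in that fall was not tested either.

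Of the plasminogen activator genes, Serpinb2 rose throughout. In EPM it went from 10.44 and 10.33 to 11.81 and 11.62 at 1 h (log2 change 1.33, SE 0.07, adjusted p = 3.95e-11) and from 10.79 and 10.68 to 13.31 and 13.32 at 12 h, a 5.97-fold rise (2.58, adjusted p = 4.18e-16). In BMDM it went from 7.81 and 7.82 to 10.15 and 10.13 at 1 h, a 5.01-fold rise (2.33, adjusted p = 1.04e-14), and from 8.33 and 8.30 to 11.09 and 10.95 at 12 h, a 6.53-fold rise (2.71, adjusted p = 2e-16). Its second probe overlaps the first by position and gave 1.06, 2.80, 1.998 and 2.76 in the same order.

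Plau and Plaur rose early and less or not at all later. Plau went from 10.13 and 9.97 to 11.49 and 11.28 at 1 h in EPM, a 2.52-fold rise (log2 change 1.33, SE 0.11, adjusted p = 1.89e-08), and by 12 h the change was 0.14 (95% confidence interval -0.09 to 0.36, adjusted p = 0.309), or 0.28 without normalization between arrays, which passed. In BMDM it rose by 0.48 at 1 h (adjusted p = 0.00229) and fell at 12 h from 8.66 and 8.54 to 7.19 and 7.07, 2.77-fold lower (-1.47, SE 0.11, adjusted p = 6.69e-10). The 1 h rise in BMDM did not pass without the Cy3 control (0.33, adjusted p = 0.0564) or the Cy5 KLA channel (0.33, adjusted p = 0.0591), and the second Plau probe gave 0.15 there (adjusted p = 0.0644). At 12 h in BMDM the second probe gave -0.27, with the KLA channels no longer well above background, so the size of this fall differs between probes while its direction and call do not.

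Plaur rose at 1 h by 1.05 in EPM (13.85 and 13.77 to 14.83 and 14.89, adjusted p = 2.4e-08) and by 1.00 in BMDM (12.40 and 12.33 to 13.33 and 13.40, adjusted p = 4.96e-08). At 12 h it was 0.33 higher in EPM (adjusted p = 0.0029). In BMDM the KLA channels, 11.71 and 12.05, overlapped with the controls at 11.82 and 11.74 (0.10, 95% confidence interval -0.08 to 0.29, adjusted p = 0.304), but the second probe, at 11.23 and 11.24 against 10.61 and 10.68, rose by 0.59 (adjusted p = 7.12e-07), and without the Cy5 KLA channel the first probe rose by 0.28 (adjusted p = 0.00619). Whether Plaur was above control at 12 h in BMDM therefore depends on the probe.

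**Figure D4:**
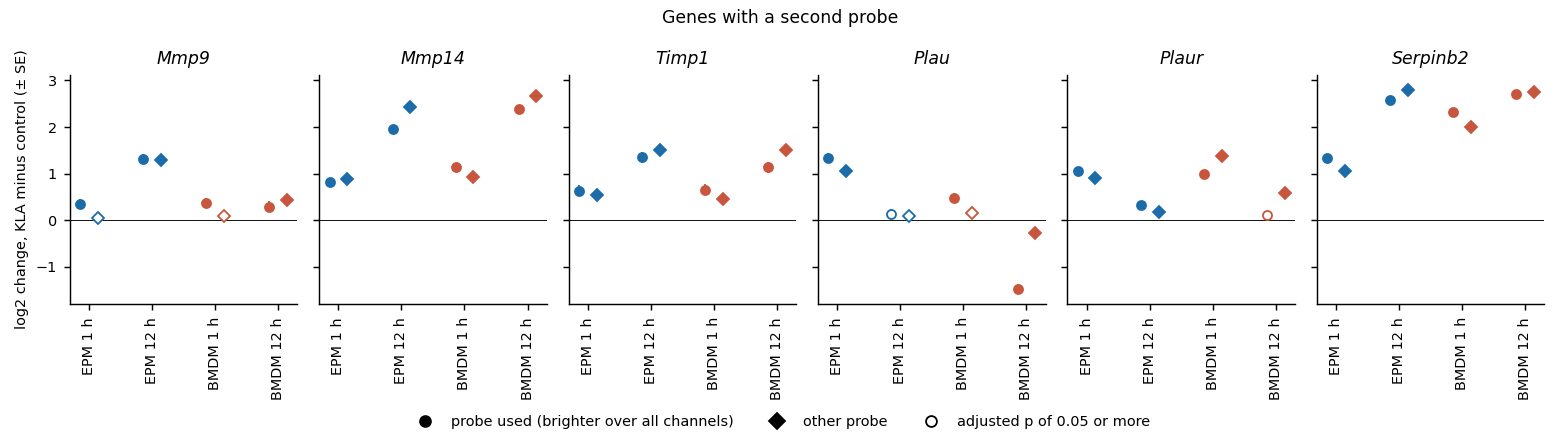
Log2 change with KLA (± SE) of the 6 genes with 2 probes in EPM (blue) and BMDM (red), for the probe used here, the brighter one over all channels (circles), and the other (diamonds), with open symbols where the adjusted p was 0.05 or more. Both probes had the same sign in 24 of 24 cases and the same call in 20, and the exceptions were Mmp9 at 1 h in both cell types, Plau at 1 h in BMDM and Plaur at 12 h in BMDM.

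Whether the change with KLA differed between EPM and BMDM was tested directly. The early control was untreated in EPM and DMSO in BMDM, so cell type and kind of control cannot be told apart at 1 h. At 1 h the difference passed for 3 of 10 genes (9.56% of all genes), and at 12 h for 7 of 10 (47.8% of all genes). At 1 h Serpinb2 rose less in EPM (-0.99, SE 0.10, adjusted p = 1.12e-06), as did Mmp13 (-0.59, adjusted p = 0.000693), and Plau rose more (0.86, SE 0.15, adjusted p = 0.000845). For Timp1 the difference was -0.01 (95% confidence interval -0.37 to 0.34), for Mmp9 -0.01 (-0.34 to 0.32) and for Plaur 0.05 (-0.20 to 0.31), although the second Plaur probe gave -0.47 (adjusted p = 0.00393). With the dye, which names the replicates, as a block, 5 passed, the added genes being Mmp12 (-0.26, adjusted p = 0.0337) and Mmp14 (-0.31, adjusted p = 0.0260).

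At 12 h the largest differences were for Mmp13, which rose more in BMDM (-2.17, SE 0.10, adjusted p = 9.92e-12), and for Plau, which fell in BMDM and did not pass in EPM (1.61, SE 0.15, adjusted p = 8.66e-08, and 0.36 with the second probe, adjusted p = 0.00171). Mmp12 (-1.11, adjusted p = 1.31e-08) and Mmp19 (-0.77, adjusted p = 1.39e-06) fell more in EPM, Timp2 did so too (-0.58, adjusted p = 0.00093, but -0.14 without normalization between arrays, adjusted p = 0.373, and -0.45 in the authors' table, adjusted p = 0.0601), Mmp9 rose more in EPM (1.02, adjusted p = 3.54e-05) and Mmp14 more in BMDM (-0.43, adjusted p = 0.0068, but -0.24 with the second probe, adjusted p = 0.107). For Timp1 the difference was 0.21 (95% confidence interval -0.14 to 0.57), for Serpinb2 -0.13 (-0.34 to 0.08) and for Plaur 0.23 (-0.03 to 0.49), with -0.41 from the second Plaur probe (adjusted p = 0.00274). Without the Cy3 channel of BMDM at 12 h of KLA the differences of Plaur (0.40) and Timp1 (0.43) passed, and without normalization between arrays that of Serpinb2 was 0.49 (adjusted p = 0.000353), with the median of all genes at 0.17. With array means as samples none of these differences passed at either time, and with the processed signal of the scanner software 0 passed at 1 h and 4 at 12 h. The shares of all genes that passed in these fits are not given here.

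**Figure D5:**
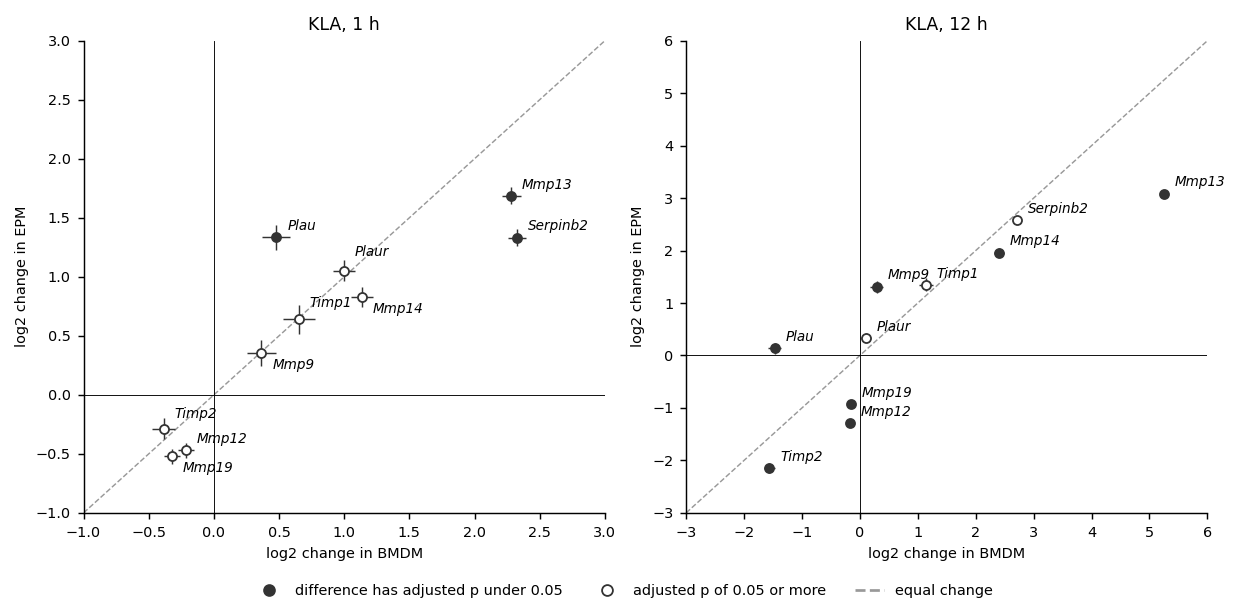
Log2 change with KLA in EPM (y axis) against BMDM (x axis) at 1 h (left) and 12 h (right), with SE as error bars and a dashed line of equal change. Filled symbols have an adjusted p under 0.05 for the difference between cell types; at 12 h Mmp13 lies farthest below the line (3.08 in EPM and 5.25 in BMDM) and Plau farthest above it (0.14 and -1.47).

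The change with KLA also differed between 12 h and 1 h, for all 10 genes in EPM (43.7% of all genes) and for 7 of 10 in BMDM (54.4%). In EPM the early control was untreated and the 12 h control DMSO. Time and vehicle therefore cannot be told apart in the EPM difference or between the EPM controls. The rises of Mmp13, Mmp14, Timp1 and Serpinb2 and the fall of Timp2 were larger at 12 h in both cell types, and the changes of Plau and Plaur moved down from 1 h to 12 h in both. The BMDM difference of Timp1 (0.48) did not pass without any one of 4 channels (0.26 to 0.40), and that of Serpinb2 (0.38) did not pass without normalization between arrays (0.14, adjusted p = 0.237) or with the processed signal (0.19, adjusted p = 0.800). Second probes gave larger BMDM differences, 1.05 for Timp1 (limma, adjusted p = 1.35e-09) and 0.76 for Serpinb2 (adjusted p = 0.000162). For Mmp9, Mmp12 and Mmp19 the difference was 0.96, -0.82 and -0.40 in EPM, and in BMDM it was -0.07, 0.04 and 0.17 with adjusted p of 0.123 or more, although the second Mmp9 probe gave 0.33 in BMDM (adjusted p = 0.00352). Between the early and 12 h controls, 7 of 10 genes differed in EPM (19.1% of all genes) and 7 of 10 in BMDM (23.2%). Apart from Timp1 and Mmp13, the control shifts were at most 0.69 in size, the largest being the rise of Mmp9 in EPM (adjusted p = 0.000186) and the fall of Plaur in BMDM (-0.59, adjusted p = 5.98e-05). Only 3 genes still differed between the BMDM controls without the Cy5 channel of the 1 h control.

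In B cells, Mmp9, Mmp12, Mmp19 and Serpinb2 were not well above background in any of the 8 channels, and Mmp13 in 1 of 8. Mmp14 (6.59 to 6.99), Timp1 (7.33 to 7.70), Timp2 (6.38 to 8.14) and Plaur (11.63 to 11.99) were well above background in all 8 channels, and Plau in 4. Plaur was thus the member closest to its macrophage level, which reached down to 11.71 in BMDM. With the labels as given, 0 of 10 genes passed at 1 h, where 2.72% of all genes rose and 2.45% fell, and 0 of 10 at 12 h (2.81% and 2.48%). At an unadjusted p under 0.05 limma gave 0 genes at 1 h and 2 at 12 h, namely Mmp13, which was not well above background in either condition, and Plaur (-0.22, adjusted p = 0.186). The second probe of Timp1 was not well above background in any B cell condition, and that of Mmp14 only on the array labelled 12 h control. Both second probes passed once, Timp1 with 0.22 at 1 h (limma, adjusted p = 0.0205) and Mmp14 with -0.34 at 12 h (adjusted p = 0.0151). For the probes used here, the 95% confidence intervals of all 10 changes lay between -0.21 and 0.42 at 1 h and between -0.40 and 0.30 at 12 h.

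Timp2 stood at 6.53 and 6.38 in untreated B cells, 6.65 and 6.55 on the array labelled KLA 1 h, 8.14 and 7.83 on the array labelled 12 h control and 7.99 and 7.80 at 12 h of KLA. The 12 h control exceeded the untreated sample by 1.53 (SE 0.09, adjusted p = 1.13e-10), and Mmp14 (0.33), Plaur (0.31) and Plau also passed, so 4 of 10 genes did, compared with 47.4% of all genes. By the labels this sets DMSO for 12 h against untreated cells, so time and vehicle cannot be told apart. Plau was at least 1.29-fold lower in the 12 h control, where it was not well above background, and its second probe was not well above background in any B cell condition. The summed macrophage markers moved with Timp2 over these arrays, with sums of 2504 and 2978 in untreated cells and 2991 and 3179 on the array labelled KLA 1 h, against 6583 and 6630 on the one labelled 12 h control and 5877 and 5890 at 12 h of KLA, and mean levels of Emr1 of 7.52, 7.44, 10.88 and 10.61 in the same order. The macrophage markers well above background in both channels numbered 6, 6, 5 and 6 of 9, and Itgam, Fcgr1 and Mrc1 were so in no B cell channel. The summed T cell markers also moved with Timp2, with sums of 1377 to 1716 on the first 2 of these arrays and 2883 to 3398 on the other 2. The part of either in the Timp2 difference was not tested. These values rest on labels that the deposited files do not settle. In the authors' table of normalized values, 4 of the 24 columns, those labelled B cell 12 h control and 1 h of KLA, tracked each other's scanner channels (lowest r 0.974) rather than their own (-0.767 to -0.706). With the 2 labels exchanged, the rise of 1.53 in Timp2 becomes a change with KLA at 1 h, 4 of 10 genes pass at 1 h (Timp2, Mmp14, Plaur and Plau), beside 8218 of all 17344 genes tested. At 12 h 4 pass (Timp2, Mmp12, Mmp13 and Plau, of which Mmp12 and Mmp13 were not well above background), beside 8526 of 17347, and between the controls 0 pass, beside 897 of 17345. No direction of a change with KLA in B cells can be given for these genes while the labels conflict.

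Related genes outside the 10 were described from 5 lists. Of 18 other matrix metalloproteinases, 12 were tested. In EPM 2 rose and 1 fell at 1 h and 4 rose and 4 fell at 12 h, and in BMDM 5 rose and 0 fell at 1 h and 7 rose and 1 fell at 12 h. Over all genes tested, 9.39% rose and 19.7% fell at 1 h and 19.6% rose and 34.3% fell at 12 h in EPM, and 11% rose and 17.6% fell at 1 h and 28.6% rose and 36.3% fell at 12 h in BMDM, and the counts of this and the other 4 lists are to be read against these shares. The median change lay between -0.07 and 0.31 in these 4 comparisons. Mmp25, a membrane-anchored metalloproteinase, was at least 12.4-fold higher in BMDM after 12 h of KLA (adjusted p = 4.92e-19), where the control was not well above background, and at least 2.68-fold higher in EPM. The stromelysins Mmp10 (2.90-fold in EPM at 12 h, adjusted p = 2.23e-11) and Mmp3 (at least 2.18-fold in BMDM at 12 h, adjusted p = 1.63e-10) rose, the neutrophil collagenase Mmp8 fell in EPM at 12 h (-1.02, adjusted p = 1.01e-10), and Mmp11 fell at 12 h in both (-0.45 and -0.59).

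Among 24 other protease inhibitors, 23 were tested. In EPM 1 rose and 4 fell at 1 h and 11 rose and 7 fell at 12 h, and in BMDM 5 rose and 2 fell at 1 h and 12 rose and 5 fell at 12 h, to be read against the all-gene shares just given, with medians between -0.04 and 0.14. The cystatin Cst7, an inhibitor of lysosomal cysteine proteases, was at least 52.7-fold higher in EPM at 12 h (adjusted p = 1.55e-18). In BMDM at 12 h Serpina3g rose by 7.03 (131-fold, adjusted p = 1.15e-19) and Serpina3f by 5.44, and these belong to a family of near-identical genes whose probes may not tell them apart. Serpinb6a fell in all 4 comparisons (-0.36 and -1.34 in EPM, -0.38 and -1.65 in BMDM), and Timp3 fell in BMDM at 12 h (-0.57, adjusted p = 9.74e-07).

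Of 18 other genes of the plasminogen system and its receptors and coagulation partners, 17 were tested. In EPM 5 rose and 3 fell at 1 h and 7 rose and 7 fell at 12 h, and in BMDM 6 rose and 1 fell at 1 h and 8 rose and 5 fell at 12 h, again beside those all-gene shares, with medians between 0.01 and 0.23. F3, tissue factor, rose at 1 h by 2.62 in EPM (adjusted p = 6.06e-17) and at least 3.34-fold in BMDM, and F10, coagulation factor X, by 2.96 and 2.87 at 12 h. Lrp1, the endocytic receptor that clears urokinase bound to its inhibitors, fell at 12 h in both (-1.64 and -1.97), as did Thbd, thrombomodulin (-1.38 and -0.79). Procr, the protein C receptor, rose in BMDM at 12 h by 1.58 (adjusted p = 3.92e-11).

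Of 19 ADAM and ADAMTS proteases, 18 were tested. In EPM 1 rose and 1 fell at 1 h and 6 rose and 6 fell at 12 h, and in BMDM 5 rose and 1 fell at 1 h and 4 rose and 4 fell at 12 h, to be read against the same all-gene shares, with medians between -0.05 and 0.02. Adam17, the sheddase of tumour necrosis factor, rose by 0.63 in EPM at 12 h (adjusted p = 7.35e-05), Adam8 fell by 0.86 there, Adam15 fell at 12 h in both (-0.75 and -0.95) and Adamts4 was at least 1.35-fold higher in BMDM at 1 h (adjusted p = 1.18e-06). Of 23 matrix substrates and docking receptors, 20 were tested. In EPM 5 rose and 3 fell at 1 h and 8 rose and 7 fell at 12 h, and in BMDM 5 rose and 1 fell at 1 h and 9 rose and 7 fell at 12 h, where over all genes 19.6% rose and 34.3% fell at 12 h in EPM and 28.6% and 36.3% in BMDM. The syndecan Sdc4 rose at 1 h by 2.21 in EPM and 2.04 in BMDM, and the fibronectin receptor chain Itga5 by 1.35 and 1.57. At 12 h thrombospondin Thbs1 rose by 2.47 and 3.30, whereas the integrin chain Itgb5 fell (-2.63 and -2.61) and Itgb3 fell by 2.11 in EPM. In B cells, with the labels as given, at most 1 gene of any of the 5 lists passed in either direction at either time, except 2 substrates and receptors that were lower at 12 h. These counts rest on the B cell labels that conflict, as given above.

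For each of the 10 genes, the genes most like it over the means of the 8 macrophage conditions were sought among 3938 genes with an SD of at least 0.5 over these means. The 8 points are 8 arrays on 2 slides, and Pearson's r is given as a description. The likest were Ptgfrn (r = 0.998) and Clca2 (0.997) for Mmp12, Arl8b (0.995) and E330036I19Rik (0.994) for Timp2, Nmt2 (0.993) and Twist2 (0.985) for Mmp9, and Trim36 (0.993) and 9030611O19Rik (0.967) for Plaur. For Timp1 they were Enah (0.987) and Prrx1 (0.984), for Mmp14 Slamf7 (0.984) and Slc2a6 (0.979), and for Mmp13 Sema3g (0.978) and Rhbdf2 (0.968). For Plau, Serpinb2 and Mmp19 they were Utp18 (0.975) and Lrp12 (0.952), Ppp1r12b (0.972) and Gfpt1 (0.968), and Arfl4 (0.966) and S100a13 (0.963). In the order of the 8 macrophage levels, EPM at 12 h of KLA was highest for Mmp9, Mmp14, Timp1 and Serpinb2, EPM at 1 h of KLA for Plau and Plaur, the EPM 12 h control for Mmp12 and Timp2, untreated EPM for Mmp19, and BMDM at 12 h of KLA for Mmp13. Neighbours in this order overlapped in 2 of 7 pairs for Mmp9, Mmp19, Timp1 and Plaur, in 1 for Mmp12 and Timp2, and in 0 for Mmp13, Mmp14, Plau and Serpinb2.

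The probes lie, on the mm8 build named in the scanner files, on chromosome 9 for Mmp13 (7282762 to 7282821) and Mmp12 (7354810 to 7355325), chromosome 14 for Mmp14 (53395337 to 53395396) and Plau (19631572 to 19631631), chromosome 2 for Mmp9 (164646008 to 164646067), chromosome 10 for Mmp19 (128202114 to 128202173), chromosome X for Timp1 (20031508 to 20031566), chromosome 11 for Timp2 (118117922 to 118117981), chromosome 7 for Plaur (24184310 to 24184369) and chromosome 1 for Serpinb2 (109352466 to 109352525). Each is assigned in the files to a RefSeq transcript of its gene, and its place within the exons was not determined here.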

How the data were processed

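RNA from EPM, BMDM and B cells was hybridised to 12 Agilent 2-colour arrays, with 2 biological replicates of 1 condition as Cy5 and Cy3. The deposited scanner files hold spot intensity values from Feature Extraction 9.5.3.1 (per the file headers), and the authors also deposited normalized intensity values for 38516 probes, on a linear scale and by a method not given in the sources used here, which served only as an alternative.

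Intensity values were background-corrected (normexp, offset 50), control spots were dropped, and loess within and Aquantile between arrays were applied with limma 3.58.1 in R 4.3.3 with the data.table package 1.17.8. Outlier spots were removed and spots of a probe averaged. A gene was represented by its brightest probe over all channels and kept where both channels of at least 1 condition were well above background (17347 of 21597 symbols). Channels were fitted as single samples with limma (12 residual degrees of freedom), and p-values were adjusted by Benjamini-Hochberg over all genes, with a threshold of 0.05. "At least" folds use the lowest signal well above background on an array where 1 side was not above it. The precision is limited by the number of channels. The steps were tested on simulated data. Simulated channels were independent, with no array effect, so that test does not bear on the limit that array and condition cannot be told apart.

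Named genes were all 10 members, the 2 genes with the largest rise and fall past the threshold in each list and macrophage comparison, and the 2 likest genes of each member. A result that this rule names is not reported here. Members and lists were chosen with earlier results of these data known. The dye pairs channels (correlations of deviations 0.265 to 0.626 over 66 array pairs), and the fit with it as a block was an alternative, beside other background, normalization, filter, probe and array settings and leaving out each channel.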

Additional observations from a re-analysis of the deposited data

Results flagged for a closer look

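The results singled out here are differences between effects that passed their own test (limma, adjusted p under 0.05). No group had the 4 samples that a check for a single outlying sample needs.

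Between EPM and BMDM (EPM minus BMDM), the log2 change with KLA at 1 h differed for Mmp13 (-0.59), Plau (0.86) and Serpinb2 (-0.99). At 12 h it differed for Mmp9 (1.02), Mmp12 (-1.11), Mmp13 (-2.17), Mmp14 (-0.43), Mmp19 (-0.77), Timp2 (-0.58) and Plau (1.61).

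Between 12 h and 1 h of KLA (12 h minus 1 h), the change in EPM differed for Mmp9 (0.96), Mmp12 (-0.82), Mmp13 (1.40), Mmp14 (1.13), Mmp19 (-0.40), Timp1 (0.71), Timp2 (-1.86), Plau (-1.20), Plaur (-0.72) and Serpinb2 (1.24). In BMDM it differed for Mmp13 (2.97), Mmp14 (1.26), Timp1 (0.48), Timp2 (-1.18), Plau (-1.95), Plaur (-0.90) and Serpinb2 (0.38). Cell type and slide, and condition and array, cannot be told apart in these differences. Nor can cell type and the kind of early control at 1 h, untreated in EPM and DMSO in BMDM. In EPM, time and kind of control cannot be told apart in the difference between 12 h and 1 h.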

How the results depend on the processing

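Counts are of the 10 genes that passed, with the count of the report in parentheses. Except for the exchanged B cell labels, the share of all genes under each setting is not given here, so these counts cannot be set against it. With array means as samples they were 0 (10) at 1 h in EPM and in BMDM, 4 (9) at 12 h in BMDM, 3 (10) and 3 (7) between 12 h and 1 h in EPM and BMDM, and 0 (3) and 0 (7) for the difference between EPM and BMDM at 1 h and 12 h. Since that fit pools the controls of a cell type, its comparison of 12 h with 1 h sets KLA at 12 h against KLA at 1 h. No control enters it, so a shift between controls is not removed and the counts are not of like contrasts. With the processed signal they were 5 (10) at 1 h in BMDM, 0 (3) and 4 (7) for the same difference, 3 (7) between controls in EPM and 3 (7) in BMDM. The authors' table gave 4 (7) between controls in EPM and 0 (4) in B cells, where it gave 4 (0) at 1 h and 2 (0) at 12 h of KLA. Exchanging the B cell labels gave 0 (4), 4 (0) and 4 (0). At 12 h in B cells, offset 16 and no normalization between arrays each gave 1 (0), and the processed signal and the mean of probes each 2 (0). With the dye as a replicate block, 1 (0) passed at 12 h in B cells and 5 (3) for the difference at 1 h, and besides Mmp12 between the EPM controls and Mmp19 between 12 h and 1 h in BMDM, which then passed, no other call changed.

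Leaving out 1 channel at a time gave 8 to 10 at 1 h and 9 at 12 h in EPM, 7 to 10 and 6 to 9 in BMDM, 0 in B cells, 10 between EPM and BMDM without KLA, 3 and 7 to 9 for the difference between them, 10 and 6 to 7 between 12 h and 1 h, and 5 to 7, 3 to 7 and 4 between controls in EPM, BMDM and B cells. Directions reversed for Mmp12 in BMDM at 12 h (authors' table, 0.0025), Mmp9 in BMDM at 12 h (-0.0050) and Serpinb2 in the 12 h difference (0.49), both without normalization between arrays, Plau in B cells at 1 h (-0.44 and -0.41) and between controls (0.14 and 0.13), and Timp2 in B cells at 12 h (1.60 and 1.29), each with the authors' table and with labels exchanged. Apart from the exchanged labels, the cause was not tested. Genes near background, as in B cells, have little range to show a fall.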
